A study of Mus musculus with 12 samples.

Results

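Calcium channels and store sensors, among them targets of products of the enzyme CD38, were taken as 10 genes by name. They were the IP3 receptors Itpr1, Itpr2 and Itpr3, the store sensors Stim1 and Stim2 and the store-operated channel subunits Orai1 and Orai2. With them were the ADP-ribose-gated channel Trpm2 and the two-pore channels Tpcn1 and Tpcn2, the targets of CD38 products among the 10. The deposited table listed 23420 genes, 9742 of them passed the filter on low counts, and all 10 channel genes were among these. RNA was sequenced in bulk from M-MDSCs (monocytic myeloid-derived suppressor cells), sorted as CD11b+Ly6G-Ly6Chi cells from bone marrow, with the tibia as the labelled tissue, of mice at either 6 months (young, 6 mice) or 24 months (aged, 6 mice). All 12 mice were males of the C57BL/6JNIA strain from an aging colony, with no transgene and no treatment named for either age, and each mouse gave 1 library. The question put to these genes is whether their transcripts differ between the ages in cells whose Cd38 transcript does, and how such differences stand beside gene length.

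CD38 and its relative BST1 turn NAD into cyclic ADP-ribose and ADP-ribose, and CD38 can also form NAADP. Cyclic ADP-ribose is known to act on ryanodine receptors, free ADP-ribose opens TRPM2, a channel of the plasma membrane and of lysosomes, and NAADP acts on the two-pore channels TPC1 and TPC2 in the membranes of endosomes and lysosomes. IP3, made by phospholipase C, opens the IP3 receptors of the endoplasmic reticulum. When this store empties, the sensors STIM1 and STIM2 couple to ORAI subunits, through which calcium enters the cell, and in myeloid cells calcium signals are known to act on migration, the oxidative burst and, through calcineurin and NFAT, on the formation of osteoclasts.

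The libraries held 8737941 to 16300374 counts in aged and 4613239 to 9079237 counts in young mice, so that 3 counts stood for 0.188 to 0.350 CPM and 0.306 to 0.643 CPM (counts relative to the library total, scaled between libraries with TMM factors). Of the sorting markers, Itgam (CD11b) was at 2895 ± 297 CPM in aged and 3376 ± 118 CPM in young mice and Ly6c2 at 727 ± 74.6 and 500 ± 100 CPM, while the monocyte receptor Ccr2 was at 31.3 ± 22.2 and 37.1 ± 14.3 CPM and Csf1r at 141 ± 37.0 and 134 ± 15.9 CPM. The 9 monocyte markers summed to 11973 to 17331 CPM in aged and 14731 to 19286 CPM in young mice, most of it from Lyz2, a lysozyme that neutrophils also express, at 11222 and 12345 CPM, with 3 called higher and 1 lower, against 22.4% and 23% of all genes tested. Most neutrophil granule and alarmin genes were far more abundant than Ccr2 and Csf1r, with Ngp the highest at 39630 ± 3370 and 30944 ± 4421 CPM. The granule genes Mpo, Elane and Prtn3 went the other way, at or below 6.58 CPM in every library, under the means of Ccr2 and Csf1r. With these included, the 12 neutrophil markers summed to 130741 to 153771 CPM in aged and 82738 to 129267 CPM in young mice, without overlap. Of the 12, 8 were called higher, and once each library was corrected for its own trend with gene length 2 were, against 18.5% of all genes, and of the monocyte markers 1 was called higher and 1 lower. A monocytic label is therefore only in part borne out by these markers. Markers of resident macrophages summed to 624 to 1489 CPM in aged and 409 to 582 CPM in young mice, with Slc40a1, at 540 and 435 CPM, the largest member. All 7 tested were called higher, against 22.4% of all genes tested, and all 7 with that correction, against 18.5%. Aged mice were uneven, with 1489 CPM in mouse 1 and C1qa from 5.18 to 84.7 CPM. Markers of proliferation summed to 336 to 757 CPM in aged and 643 to 1253 CPM in young mice. Of these 8, 2 were called lower, Mki67 and Top2a, against 23% of all genes tested, and 1 with that correction. Young mice 5 and 6, the highest in Trpm2, Orai2 and Tpcn2, had the highest proliferation sums, at 1253 and 1217 CPM, and the lowest neutrophil sums, at 82738 and 83735 CPM. Erythroid markers stayed at or below 5.24 CPM and B cell markers at or below 15.8 CPM in every library. The part of these markers in the differences of the channel genes was not tested. The young libraries were most alike in twos, with a chi-square per gene of 1.72 between mice 1 and 2, 2.65 between 9 and 10 and 4.14 between 5 and 6, against 4.59 or more between the other young pairs and 5.42 or more among aged mice. These twos have neighbouring mouse numbers and sample numbers in the names of the alignments, and the tests below count 6 young mice unless they are said to be summed to 3 units. The sample numbers of the aged mice fall in 2 stretches, mice 1, 2 and 4 and mice 5, 6 and 7. Every young library carried a lower sample number than any aged library, so that a change in preparation or sequencing cannot be told apart from age.

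The Cd38 transcript itself was at 22.6 to 39.2 CPM in aged mice and at 3.15 to 5.14 CPM in young mice, without overlap. Its log2 fold change was 2.88 with a standard error of 0.157 (adjusted p = 8.18e-08 in edgeR's quasi-likelihood test, adjusted over all 9742 genes tested). Adjusted p-values of genes below come from the same test unless stated. Those of alternative fits are adjusted over the genes tested in each fit. Bst1, the other cyclic ADP-ribose enzyme of bone marrow, also rose, from 139 ± 26.6 CPM in young mice to 234 ± 58.5 CPM in aged mice (mean ± SD, n = 6 each; log2 fold change 0.76, adjusted p = 0.00154).

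None of the 10 channel genes rose with age at the threshold of 0.05 on the adjusted p, and 5 of them fell, namely Itpr2, Stim2, Orai2, Trpm2 and Tpcn2. Over all genes tested 23% were called lower and 22.4% higher in aged mice, and 45.4% were called in either direction. For these 5 genes alone the ranges of the ages were apart, each gene being lower in all 6 aged mice than in any young mouse, and for none was it the reverse. Over all genes tested 12.1% were lower without overlap, 9.68% were higher without overlap and 21.8% were one or the other. The median log2 fold change was -0.37 over the 10 channel genes and 0.01 over all genes tested. Within each family of several genes a member that fell stood beside one that was not called. At an unadjusted p below 0.05 in edgeR Orai1 was also higher and Itpr1 and Tpcn1 were also lower, a threshold at which the share over all genes was not computed. DESeq2 called 0 and limma-voom 1 of the 10 genes higher. Without young mice 5 and 6 the same 5 genes were called lower, and also with the young mice summed in twos to 3 units (adjusted p = 0.000227 to 0.00975 in edgeR). Against all young mice the same 5 were called lower in aged mice 1, 2 and 4, and in aged mice 5, 6 and 7, where Tpcn1 was called too. In bulk RNA fewer cells of a type and less RNA per cell cannot be told apart.

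The sequence before the transcription start is shown for the 5 genes that fell, since these carry the difference between the ages. RefSeq promoters of GRCm38.p6, the same assembly as mm10, were matched for 8 of the 10 genes. The promoter set used here held none for Itpr1 and Tpcn1. Each line gives the 250 bases before the RefSeq start, 5′ to 3′ on the strand of the gene, with capitals for the matches of the motifs named after them.
Itpr2: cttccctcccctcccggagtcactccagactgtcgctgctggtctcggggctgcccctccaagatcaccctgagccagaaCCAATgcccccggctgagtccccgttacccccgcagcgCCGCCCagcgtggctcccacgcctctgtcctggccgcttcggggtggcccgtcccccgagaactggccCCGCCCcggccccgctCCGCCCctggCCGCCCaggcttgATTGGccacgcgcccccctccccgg
Stim2: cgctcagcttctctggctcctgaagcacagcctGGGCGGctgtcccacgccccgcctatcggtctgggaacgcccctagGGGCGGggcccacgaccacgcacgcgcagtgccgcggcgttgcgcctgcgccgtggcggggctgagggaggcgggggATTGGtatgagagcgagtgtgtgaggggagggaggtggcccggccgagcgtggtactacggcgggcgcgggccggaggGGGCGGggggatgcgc
Orai2: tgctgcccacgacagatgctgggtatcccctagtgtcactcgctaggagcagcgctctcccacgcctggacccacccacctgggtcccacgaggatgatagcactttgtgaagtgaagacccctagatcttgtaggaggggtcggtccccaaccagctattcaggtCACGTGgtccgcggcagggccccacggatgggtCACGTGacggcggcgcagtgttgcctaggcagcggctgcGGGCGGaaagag
Trpm2: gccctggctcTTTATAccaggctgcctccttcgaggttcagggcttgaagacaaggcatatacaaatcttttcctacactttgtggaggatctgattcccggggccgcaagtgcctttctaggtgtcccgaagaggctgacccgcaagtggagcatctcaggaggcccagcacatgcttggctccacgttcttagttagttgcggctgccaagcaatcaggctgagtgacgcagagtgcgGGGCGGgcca
Tpcn2: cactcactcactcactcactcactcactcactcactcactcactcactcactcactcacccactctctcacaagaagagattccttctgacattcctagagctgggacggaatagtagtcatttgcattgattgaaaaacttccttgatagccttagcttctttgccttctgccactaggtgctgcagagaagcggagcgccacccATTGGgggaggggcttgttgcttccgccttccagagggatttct
These windows lie at chr6:146502224-146502473 on the minus strand for Itpr2, at chr5:53998273-53998522 on the plus strand for Stim2, at chr5:136170657-136170906 on the minus strand for Orai2, at chr10:77969873-77970122 on the minus strand for Trpm2 and at chr7:145284012-145284261 on the minus strand for Tpcn2. The RefSeq start equalled the start of the gene in the deposited table for Itpr2, Stim2, Orai2 and Trpm2, and lay 84 bases from it for Tpcn2. Both strands were searched for 5 motifs, and no matches overlapped in the windows shown. The GC box, with the letters GGGCGG, was found in 7 of the 8 windows, 4 times in Itpr2, 3 times in Stim2 and 1 time each in Orai2 and Trpm2, and it was found in 32.7% of all 32851 promoter windows of that length. Orai2 held 2 copies of the E-box CACGTG, which occurs in 6.02% of all windows, and Itpr3 held 1. A CCAAT match was seen in 4 of the 8 windows, Itpr2, Stim2, Orai1 and Tpcn2, against 33.8% of all windows. The letters of the TATA box, TATAAA, were searched without regard to position and were seen in Trpm2 and in 12.4% of all windows. In Trpm2 they lay on the opposite strand, at the end of the window far from the start. The core of PU.1, a master regulator of myeloid cells, was searched as GAGGAA and was in none of the 8 windows and in 23.3% of all windows. The windows of Itpr2 and Stim2 were rich in G and C, at 74.4% and 74.8%, beside a median of 52.4% over all windows. Orai2 was at 63.6%, and Trpm2 and Tpcn2 were nearer that median, at 56.8% and 50.4%. Those of Stim1, Itpr3 and Orai1, not called, were at 78.4%, 72.0% and 70.8%. Apart from Tpcn2 the 5 genes that fell shared the GC box, which Stim1, Itpr3 and Orai1, not called, also held.

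The IP3 receptors are the release channels of the endoplasmic reticulum, and Itpr2 was their main transcript at both ages. Itpr2 (chr6:146108299-146502223 on mm10, minus strand, 57 exons) was at 131, 145 and 175 CPM (lowest, median and highest of 6) in aged mice and at 264, 286 and 313 CPM in young mice. The highest aged mouse thus lay well under the lowest young mouse, and the spread within each age was small. The mean was 151 ± 19.4 CPM in aged against 290 ± 18.3 CPM in young mice, 1.92-fold lower in aged mice; on the log2 scale the change was -0.94 with a standard error of 0.083 (adjusted p = 4.65e-06). This was the smallest p-value among the 10 genes. With the correction for gene length the log2 fold change was -0.34, still called.

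Itpr1 (chr6:108213096-108551116, plus strand, 62 exons), the IP3 receptor best known from neurons, was at 6.01, 9.36 and 10.9 CPM in aged and at 9.23, 10.2 and 14.3 CPM in young mice. The ranges overlapped, with 3 of the 6 aged mice below the lowest young mouse, and the log2 fold change of -0.38 (95% interval -0.74 to -0.02) did not pass after adjustment (adjusted p = 0.0758; -0.19 and adjusted p = 0.436 without young mice 5 and 6). Itpr3 (chr17:27057304-27122223, plus strand, 58 exons), the receptor of many epithelia, was measured on 11 to 45 counts in aged and 7 to 32 counts in young mice, at 1.02, 2.86 and 5.02 CPM against 0.947, 1.59 and 3.47 CPM. Its log2 fold change was 0.43 with an interval of -0.36 to 1.21 (adjusted p = 0.359), so that a rise and a small fall could not be told apart. The value rested on single mice, running from 0.18 without aged mouse 1 to 0.68 without young mouse 5, and it was 0.96 (adjusted p = 0.0903) without young mice 5 and 6 and 0.13 on libraries thinned to the smallest total. It was 0.80 with aged mice 1, 2 and 4 alone and -0.03 with aged mice 5, 6 and 7 alone.

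Per kilobase of exon, the sum of the 3 IP3 receptors was 13.9 ± 1.67 CPM per kb in aged and 25.9 ± 1.58 CPM per kb in young mice. Itpr2 made up 91.4% ± 2.48 of that sum in aged and 94.8% ± 1.26 in young mice, and Itpr1 made up 6.34% ± 1.39 and 4.40% ± 0.893. Values per kilobase, here and below, are not corrected for the trend of each library with gene length. With that correction Itpr2 was at -0.34 on the log2 scale, against -0.94 without it. Within a mouse, the count of Itpr2 relative to Itpr3 was lower in aged mice by 1.38 on the log2 scale (exact two-sided permutation test over 924 splits of the mice, p = 0.0152, Benjamini-Hochberg adjusted p = 0.0208 over the 6 ratios tested). Itpr1 relative to Itpr2 was higher by 0.57 (exact permutation p = 0.0173, adjusted 0.0208), and Itpr1 relative to Itpr3 differed by -0.81 (exact permutation p = 0.0260, adjusted 0.0260). The ranges of the 2 ages overlapped in these 3 ratios. At the depth of the smallest library none of the 3 passed, with differences of -0.79, 0.45 and -0.34 and adjusted p-values of 0.288, 0.0617 and 0.532. With the young mice summed in twos, which leaves 3 young units, the differences were -1.39, 0.58 and -0.81 and none passed, at adjusted p-values of 0.0714, 0.0714 and 0.0952 in the exact permutation test. With aged mice 5, 6 and 7 alone the differences were -0.93, 0.37 and -0.56 and none passed (adjusted p-values of 0.161, 0.161 and 0.250), whereas all 3 passed with aged mice 1, 2 and 4 alone.

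**Figure D1:**
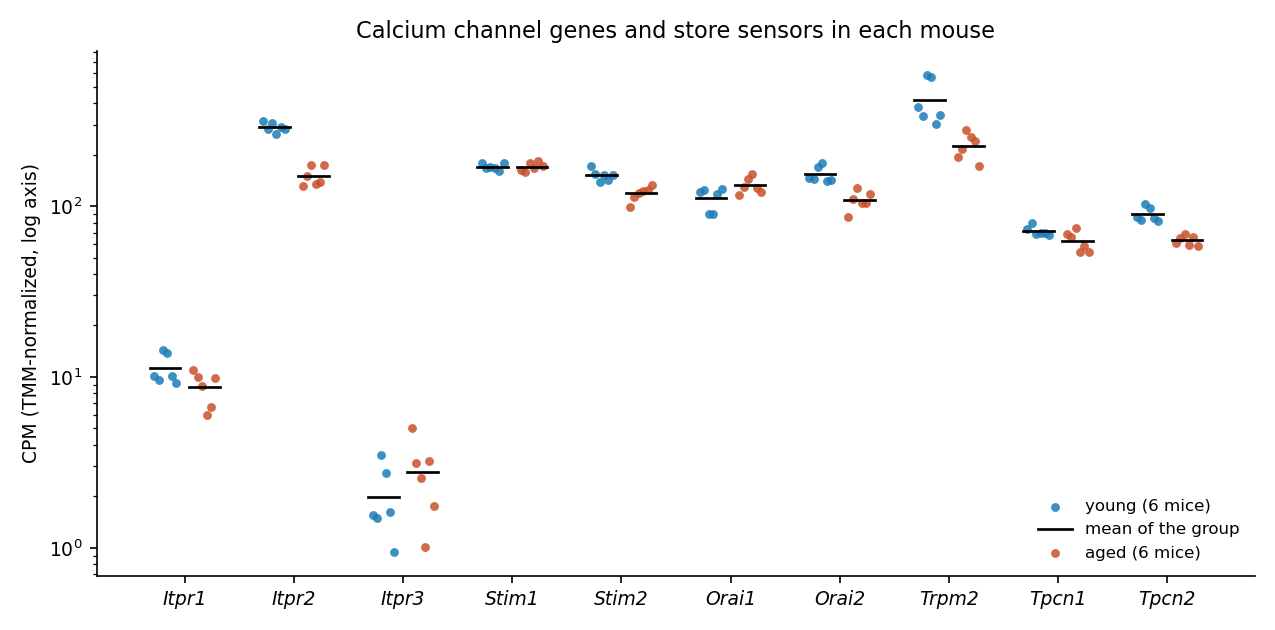
CPM of each of the 10 genes in every mouse, on a log axis, with young mice in blue, aged mice in orange and the mean of the 6 mice as a black line. For Itpr2, Stim2, Orai2, Trpm2 and Tpcn2 all 6 aged points lie below all 6 young points, and Itpr1 and Itpr3 lie far below the other 8 genes.

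The store sensors differed from each other. Stim1 (chr7:102267824-102436855, plus strand, 12 exons), the sensor that drives most store-operated entry, was at 158, 169 and 183 CPM in aged and at 161, 168 and 179 CPM in young mice. The ages covered nearly the same range, the mean was 170 CPM at both ages, and the 95% interval of the log2 fold change ran from -0.12 to 0.12 (adjusted p = 0.978). Stim2 (chr5:53998523-54121057, plus strand, 12 exons), the sensor that responds to small losses of stored calcium, was at 99.3, 121 and 133 CPM in aged and at 139, 152 and 173 CPM in young mice. All aged mice lay below all young mice, by a log2 fold change of -0.36 (adjusted p = 0.00176, standard error 0.076), and with the correction for gene length it was at -0.16 and no longer called (adjusted p = 0.0941). The count of Stim1 relative to Stim2 within a mouse was higher in aged mice by 0.36 on the log2 scale without overlap (exact permutation p = 0.00216, the smallest this design allows, adjusted 0.00649; adjusted 0.0357 with the young mice summed in twos), and per kilobase Stim1 was 1.96 times Stim2 in aged and 1.53 times in young mice.

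The pore subunits differed likewise. Orai1 (chr5:123015074-123030452, plus strand, 2 exons), the main pore of store-operated entry, was at 117, 128 and 155 CPM in aged and at 89.3, 119 and 125 CPM in young mice. In 4 of the 6 aged mice it was above every young mouse, and the log2 fold change of 0.25 (95% interval 0.04 to 0.47) stood just outside the threshold (adjusted p = 0.0550). The 2 lowest values, both 89.3 CPM, were those of young mice 5 and 6, and without these mice the log2 fold change was 0.10 (adjusted p = 0.358). Orai2 (chr5:136147461-136170656, minus strand, 3 exons), a subunit that can lower the current of the channel when it joins ORAI1, was at 85.7, 107 and 127 CPM in aged and at 141, 144 and 179 CPM in young mice. These ranges did not overlap, and Orai2 fell by 0.51 on the log2 scale (adjusted p = 0.000668, standard error 0.092), and by 0.42 without young mice 5 and 6 (adjusted p = 0.00240).

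Orai1 relative to Orai2 within a mouse was below 1 in every young mouse and above 1 in every aged mouse in counts, from -1.01 to -0.19 and from 0.05 to 0.56 on the log2 scale. The difference of 0.77 passed the exact permutation test (p = 0.00216, adjusted 0.00649), was 0.52 without young mice 5 and 6 (adjusted 0.00952) and 0.77 with the young mice summed in twos (adjusted 0.0357), and was larger than those of Stim1/Stim2 and Tpcn1/Tpcn2. Orai1 made up 59.0% ± 1.97 of the ORAI transcripts per kilobase in aged and 50.9% ± 4.82 in young mice, Orai2 23.5% ± 2.56 and 34.7% ± 6.11, and the third subunit Orai3 17.5% ± 2.30 and 14.4% ± 1.88. Orai3 was not called (log2 fold change 0.33, adjusted p = 0.0779), and the sum of the 3 subunits was 120 ± 13.1 CPM per kb in aged and 116 ± 7.90 CPM per kb in young mice.

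Trpm2 (chr10:77907722-77969872, minus strand, 34 exons) is opened by ADP-ribose and had the highest mean CPM of the 10 genes at both ages, on 1729 to 2741 counts in aged and 1570 to 5618 counts in young mice. It was at 171, 229 and 279 CPM in aged and at 301, 361 and 588 CPM in young mice. The ages did not overlap, and young mice 5 and 6, at 588 and 572 CPM, stood apart from the other young mice, which lay between 301 and 379 CPM. Trpm2 fell by 0.90 on the log2 scale (adjusted p = 0.000912, standard error 0.172), and without young mice 5 and 6 by 0.61 (adjusted p = 0.00139). With the correction for gene length the log2 fold change was -0.51, still called.

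The two-pore channels also parted. Tpcn2 (chr7:145253923-145283927, minus strand, 25 exons), the channel of lysosomes, was at 58.2, 63.2 and 68.9 CPM in aged and at 81.4, 86.0 and 104 CPM in young mice. Its ranges were apart, and young mice 5 and 6, at 104 and 97.8 CPM, again lay above the other young mice, which were between 81.4 and 86.5 CPM. Tpcn2 fell by 0.51 on the log2 scale (adjusted p = 0.000138, standard error 0.075), and by 0.44 without young mice 5 and 6 (adjusted p = 0.000252). Tpcn1 (chr5:120534157-120588613, minus strand, 28 exons), found mostly in endosomes, was at 53.6, 62.0 and 74.2 CPM in aged and at 67.9, 69.3 and 79.5 CPM in young mice, with 4 of the 6 aged mice below every young mouse. The log2 fold change of -0.19 had a 95% interval of -0.38 to -0.01 and did not pass (adjusted p = 0.0777). It was -0.04 (adjusted p = 0.725) with aged mice 1, 2 and 4 alone and -0.35 (adjusted p = 0.00991) with aged mice 5, 6 and 7 alone. Tpcn1 relative to Tpcn2 was higher in aged mice by 0.30 on the log2 scale (exact permutation p = 0.0108, adjusted 0.0208), and without young mice 5 and 6 by 0.19 (adjusted 0.0524) and at the depth of the smallest library by 0.29 (adjusted 0.0617). With the young mice summed in twos it was 0.30 (adjusted 0.0714), and with aged mice 5, 6 and 7 alone 0.19 (adjusted 0.171). Per kilobase the sum of both was 35.1 ± 3.04 CPM per kb in aged and 46.2 ± 2.78 CPM per kb in young mice.

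**Figure D2:**
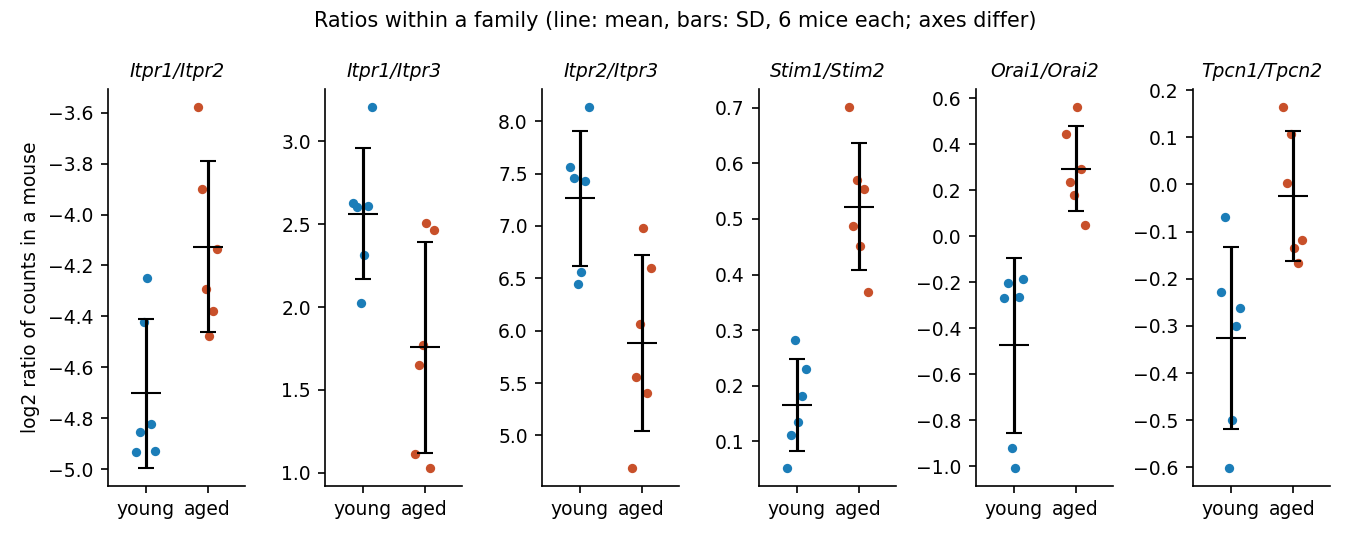
Log2 ratio of the counts of 2 members of a family within each mouse, with 1 panel per ratio on its own axis, young mice in blue and aged mice in orange, a line at the mean and bars for the SD. The ages do not overlap for Stim1/Stim2 and Orai1/Orai2.

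Ordered by level per kilobase, aged cells held Orai1 first, at 70.6 ± 7.64 CPM per kb, then Stim1 at 47.2 ± 2.61, Trpm2 at 30.9 ± 5.48, Orai2 at 28.1 ± 3.59, Stim2 at 24.2 ± 2.33, Tpcn2 at 21.7 ± 1.46, Tpcn1 at 13.4 ± 1.80, Itpr2 at 12.7 ± 1.64, Itpr1 at 0.882 ± 0.200 and Itpr3 at 0.310 ± 0.154. The ranges of Trpm2 and Orai2, of Orai2 and Stim2, of Stim2 and Tpcn2, and of Tpcn1 and Itpr2 overlapped, and those of the other neighbours in this order did not. In young cells Orai1, at 59.3 ± 9.13 CPM per kb, Trpm2, at 57.6 ± 17.4, and Stim1, at 47.2 ± 1.99, had overlapping ranges. Orai2 followed at 39.8 ± 4.28, Stim2 at 31.0 ± 2.44, Tpcn2 at 30.8 ± 3.04, Itpr2 at 24.5 ± 1.55, Tpcn1 at 15.4 ± 0.974, Itpr1 at 1.14 ± 0.227 and Itpr3 at 0.220 ± 0.105, of which the ranges of Stim1 and Orai2 and of Stim2 and Tpcn2 overlapped between neighbours. By the means the order changed between the ages for Itpr2 and Tpcn1 and for Trpm2 and Stim1. The latter rested on young mice 5 and 6, since Trpm2 was above Stim1 in 3 of the 6 young mice, and without mice 5 and 6 it was at 46.6 ± 4.38 CPM per kb against 47.5 ± 2.49 for Stim1 (n = 4).

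Gene length moved with the difference between the ages. Length here is the number of exon bases of a gene in the deposited table, and across the 9742 genes tested Spearman's rho of the log2 fold change with length was -0.48, a description over genes that share the same 12 libraries. Of the 702 genes of at least 7000 bases, 68.5% were called lower and 4.13% higher in aged mice, with a median log2 fold change of -0.47, and 30.9% of those from 2800 bases up to that length and 8.65% of those shorter than 2800 bases were called lower. The median length was 4779 bases for the channel genes and 2890 bases for all genes tested. Itpr2 (11823 bases), Itpr1 (9877 bases), Itpr3 (8990 bases) and Trpm2 (7292 bases) belonged to the longest class. Itpr2 and Trpm2, at -0.94 and -0.90, were lower than the median of that class and Itpr1 and Itpr3, at -0.38 and 0.43, were higher. Tpcn2 (2909 bases) and Orai2 (3849 bases) fell with a length near or modestly above the median, and Orai1 (1871 bases), the shortest, was the only other gene beside Itpr3 with a log2 fold change above 0.

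With each library corrected for its own trend with length, 4 of the 10 channel genes were called lower, against 16.5% of all genes tested (18.5% were called higher and 35% in either direction), and their median log2 fold change was -0.09. Tpcn2 hardly moved, at -0.50 (adjusted p = 0.000198), and Orai2 was at -0.40 (adjusted p = 0.00237). Trpm2 was at -0.51 (adjusted p = 0.0239) and Itpr2 at -0.34 (adjusted p = 0.00183), a smaller difference than on the counts as deposited. Stim2 was no longer called, at -0.16 (adjusted p = 0.0941), and Itpr1 changed sign, to 0.14 (adjusted p = 0.481). Itpr3 was at 0.92 (adjusted p = 0.0580), Orai1 at 0.12 (adjusted p = 0.338), Stim1 at 0.07 (adjusted p = 0.325) and Tpcn1 at -0.02 (adjusted p = 0.862). With the same correction all 6 ratios kept their sign and an adjusted p below the threshold in the exact permutation test, at 0.24 for Stim1/Stim2, 0.53 for Orai1/Orai2 and 0.47 for Tpcn1/Tpcn2. What part of the length trend comes from the RNA or its preparation was not tested.

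**Figure D3:**
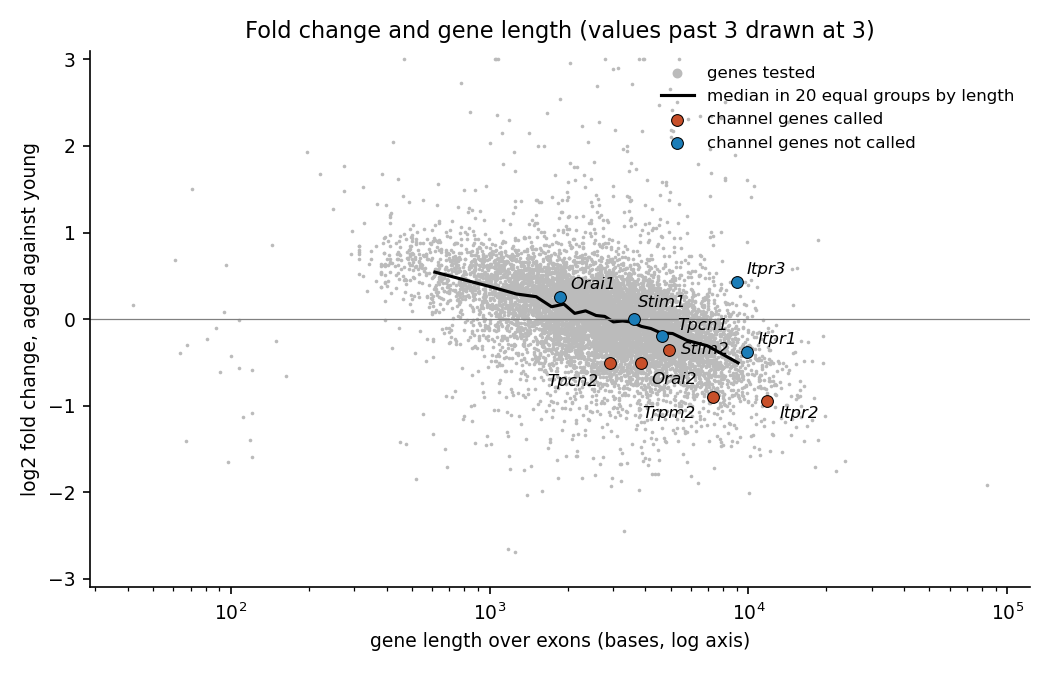
Log2 fold change of aged against young mice by gene length in bases, on a log axis, for the 9742 genes tested in grey, with the median in 20 groups of equal size as a line and the channel genes in orange where called and blue where not. The line falls with length, Trpm2, Orai2 and Tpcn2 lie below it and Itpr3 lies above it.

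**Figure D4:**
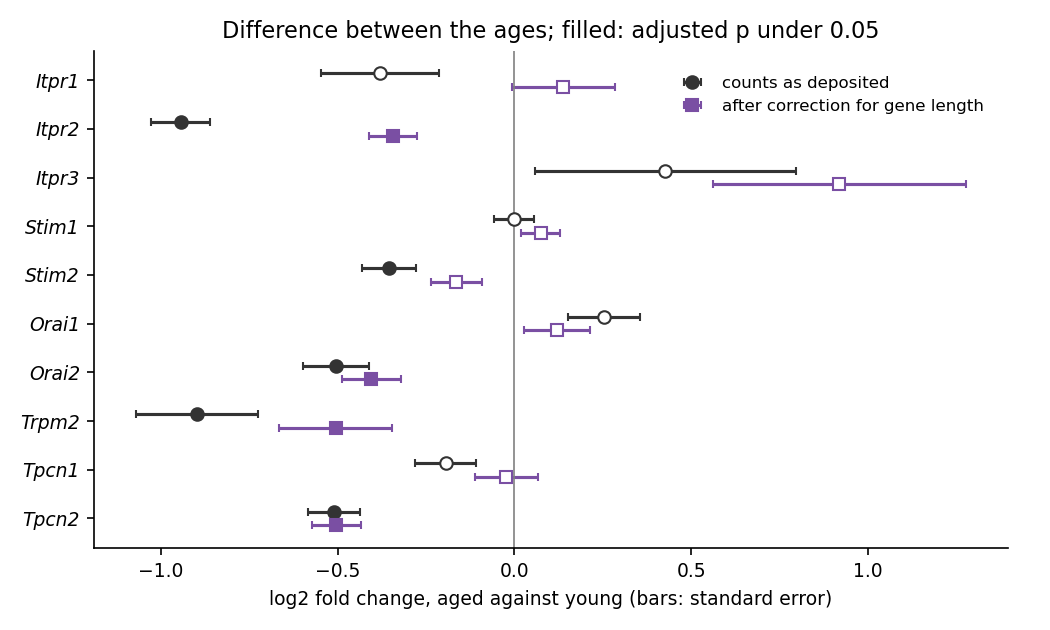
Log2 fold change with its standard error for each gene, on the counts as deposited (circles) and after correction for gene length (squares), filled where the adjusted p was below 0.05. Itpr2, Orai2, Trpm2 and Tpcn2 are filled both ways and Stim2 on the deposited counts only.

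The steps before and after these channels were followed in 13 further lists of 141 genes, of which 93 were tested. Of these, 21 were called higher (22.6%) and 22 lower (23.7%), close to the shares over all genes tested, and the median log2 fold change was 0.02. Of the cyclic ADP-ribose enzymes Cd38 and Bst1 rose, and Sarm1 was below the count filter. The ryanodine receptors, the targets of cyclic ADP-ribose, were hardly detected. Ryr2, Ryr3 and the FK506-binding Fkbp1b were below the filter, and Ryr1, at 2.63 ± 0.764 CPM in aged and 1.71 ± 0.822 CPM in young mice, was not called on the deposited counts (log2 fold change 0.59, adjusted p = 0.116), whereas it was called with the length correction at 1.34 (adjusted p = 0.00135; 15362 bases). Among the 3 genes of ADP-ribose removal Adprm rose by 0.23 (adjusted p = 0.0196; 0.02 and adjusted p = 0.882 with the length correction), and of the NAADP-binding proteins Lsm12 rose by 0.58 (adjusted p = 0.00223; 0.30 and adjusted p = 0.0362 with the length correction) and Hn1l did not pass.

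On the IP3 side the genes called in 3 lists were all lower, beside 23% of all genes tested and 30.9% of those from 2800 up to 7000 bases, the class of 17 of the 25 genes tested in these lists. In phospholipase C, 2 of 6 tested genes fell, Plcb2 with a log2 fold change of -0.70 (adjusted p = 0.00228) and Plcg2 with -0.27 (adjusted p = 0.00229). Of the kinases and phosphatases that act on inositol phosphates and their lipids, 6 of 12 fell, with Inpp4a at -0.68 (adjusted p = 0.000378; -0.33 and adjusted p = 0.0172 with the length correction) and Inpp5a, which removes a phosphate from IP3, at -0.52 (adjusted p = 0.000123), and Itpka was below the filter. Of the regulators of the IP3 receptors 2 of 7 fell, Itprip, an IP3 receptor-interacting protein, at -0.68 (adjusted p = 5.56e-05) and Lrmp at -0.59 (adjusted p = 0.00240), and Mrvi1, Tespa1 and Bok were below the filter. After the length correction 1, 4 and 2 genes of these lists were called lower, beside 16.5% of all genes, and Plcg2 was at -0.13 (adjusted p = 0.0854). Plcb2, like Trpm2 and most of the called genes in these 3 lists, was without overlap, at 243 to 335 CPM in aged and 360 to 635 CPM in young mice. Over all genes tested 12.1% were lower without overlap. With the length correction Plcb2 was at -0.48 (adjusted p = 0.0133).

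Of the regulators of store-operated entry 2 of 7 rose and 2 fell, near the 22.4% and 23% of all genes tested, with Grina at 0.44 (adjusted p = 0.0145; 0.26 and adjusted p = 0.120 with the length correction) and Efcab4b, a partner of ORAI and STIM, at -0.53 (adjusted p = 0.00108; -0.88 and adjusted p = 0.000413 with the length correction), and Efcab4a and Tmem178 were below the filter. With the length correction 1 rose and 1 fell, with 1 mouse left out 2 to 4 rose, and with the young mice summed in twos 0 rose and 2 fell. Of 7 pumps and exchangers 1 fell, the plasma membrane pump Atp2b1, at -0.42 (adjusted p = 0.000438), and with the length correction it was at -0.05 (adjusted p = 0.623). With that correction 0 of the 7 fell and 2 rose, the exchanger Slc8a1 at 1.81 (adjusted p = 0.00826; 18599 bases) and the pump Atp2a3 at 0.15 (adjusted p = 0.0480), against 0.91 (adjusted p = 0.118) and -0.02 (adjusted p = 0.813) on the deposited counts. Slc8a1 was uneven, at 2.46 to 22.7 CPM in aged and 2.60 to 6.40 CPM in young mice (17 to 59 counts). Only 2 of the 6 aged mice lay above every young mouse. Of the 6 mitochondrial uptake genes 5 were called higher, beside 22.4% of all genes tested, and Letm1, at -0.06 (adjusted p = 0.678), was not. Their largest rise was that of Vdac2, a channel of the outer membrane, at 0.45 (adjusted p = 0.000805; 0.28 and adjusted p = 0.00848 with the length correction), Ccdc109b was below the filter, and 2 genes were called higher with the length correction, 2 without young mice 5 and 6 and 3 with the young mice summed in twos. Of 10 calcium-binding proteins of the endoplasmic reticulum 2 rose and 2 fell, again near the shares over all genes, with Pdia4 at 0.50 (adjusted p = 0.0429; 0.46 and adjusted p = 0.0687 with the length correction), Hsp90b1 at -0.53 (adjusted p = 0.0151) and Hspa5 at -0.44 (adjusted p = 0.000819), and Rcn3 was below the filter.

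Among 11 other calcium-permeable channels 2 rose and 3 fell, near the 22.4% and 23% of all genes tested. P2rx4, an ATP-gated channel, rose by 0.98 (adjusted p = 0.00147), Trpc2 fell by 1.31 on the log2 scale (adjusted p = 0.00538) at a level of 1.15 ± 0.291 against 2.78 ± 1.53 CPM, and Trpm7, the channel kinase of the Trpm2 family, was at -0.40 (adjusted p = 0.000805), and at -0.04 (adjusted p = 0.652) with the length correction. Of 18 genes of calmodulin, calcineurin and NFAT 6 rose and 4 fell, beside 22.4% and 23% of all genes tested, and with the length correction 9 rose and 2 fell, beside 18.5% and 16.5%. Camk2d rose by 0.86 (adjusted p = 0.00566), and Nfat5, the NFAT member that responds to osmotic stress and does not depend on calcineurin, fell from 195 ± 57.7 CPM in young to 67.1 ± 9.23 CPM in aged mice (log2 fold change -1.54, adjusted p = 1.19e-05; 13443 bases, -0.85 and adjusted p = 0.000179 with the length correction).

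**Figure D5:**
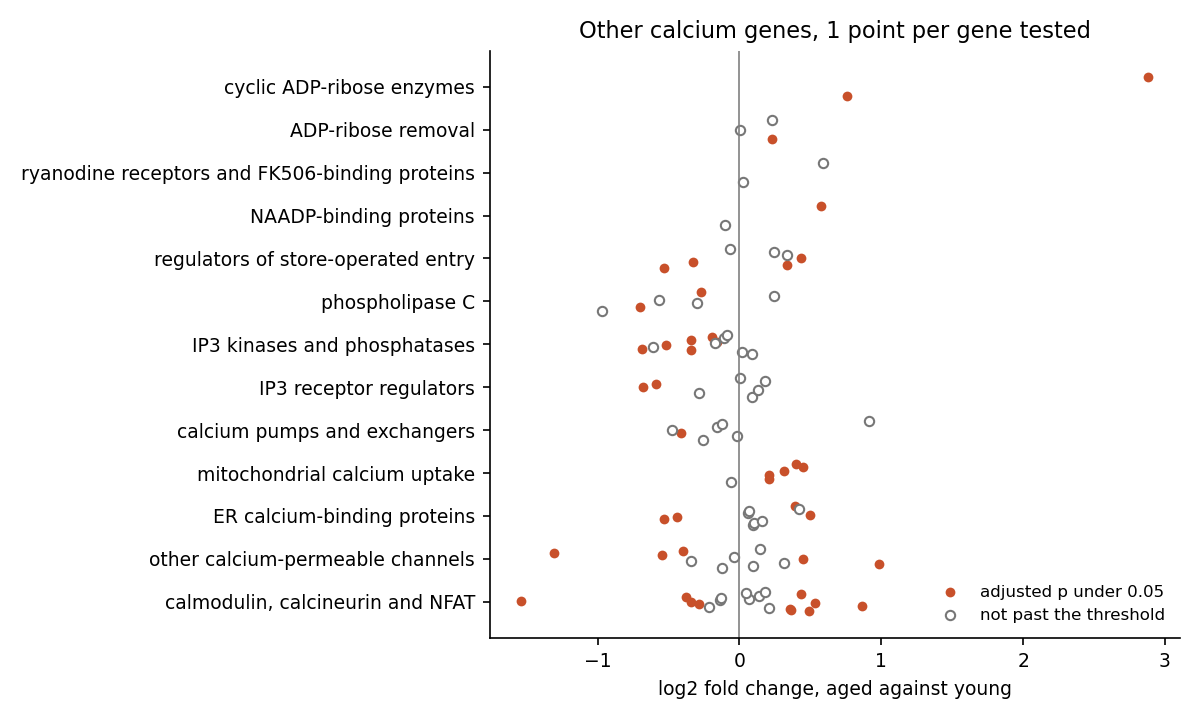
Log2 fold change of aged against young mice for each tested gene of the 13 other calcium lists, with 1 row per list, filled orange where the adjusted p was below 0.05. Mitochondrial uptake lies mostly to the right, the phospholipase C and inositol phosphate rows hold filled points to the left of 0 only, and Cd38 is the point at 2.88.

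The genes that varied most like Itpr2 among mice of the same age were found from Pearson's r of log2 CPM over the 12 mice after subtraction of the mean of each age, among 7806 genes of at least 5 CPM. Among the 3 genes with the highest r were Mll5 (r = 0.92) and Crebbp (r = 0.91), which encode chromatin regulators. These are long transcripts of 7258 and 7507 bases, and their log2 fold changes were -0.64 and -0.55. The r values describe 12 mice, of which the young libraries were most alike in twos, on log2 CPM without the correction for gene length.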

How the data were processed

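Total RNA of 12 sorted bone marrow samples, 1 per mouse, was sequenced in pairs of reads from stranded Illumina libraries. The authors deposited raw counts of fragments per gene, made with featureCounts 2.0.0 per the file header over exons of a UCSC annotation of mm10, on the reverse strand, with both ends aligned and a mapping quality of at least 60, and bcl2fastq is named in the submitters' processing notes. The aligner is not given in the sources used here. The deposited table also holds gene length in exon bases (unit other), used per kilobase. No values had been normalized. The mapping quality minimum removes fragments that align to several places, and stranded counting separates antisense genes.

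Counts were fitted with edgeR 4.0.16 (filterByExpr, TMM, quasi-likelihood, age alone) in R 4.3.3, with Benjamini-Hochberg adjustment over 9742 genes and a threshold of 0.05. The common biological coefficient of variation was 15.7%. Standard errors came from the log2 fold change and F. Ratios used counts plus 0.5 and an exact two-sided permutation test over mice. The length correction took a loess trend (span 0.5) of each library as an offset. Log2 CPM used a prior count of 2. No 2 libraries agreed within sampling noise, and the smallest chi-square per gene between same-age libraries was 1.72. The labels name 1 library for each mouse.

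The members and gene lists were chosen with earlier results of these data known. Named genes were all 10 channel genes, Cd38 and Bst1, in each list the largest rise, largest fall and smallest p among called genes, list members below the filter where 5 or fewer, and the 3 genes most like the member of smallest p, of which 1 is not reported here. Orai3, Hn1l, Plcg2, Lrmp, Ryr1, Letm1, Slc8a1, Atp2a3 and the marker genes printed were named after their values were seen. Alternatives were DESeq2 1.42.0, limma-voom (limma 3.58.1), other scalings and filters, corrections for length and for GC content (GENCODE M21 transcripts, 94.4% of genes tested), thinning to 4613239 counts, leaving out mice, summing the young mice most alike in twos (1 and 2, 5 and 6, 9 and 10), each stretch of aged sample numbers alone, and a block on mouse number. The fit, the length correction and the permutation test were tested on simulated data. Ly6g was not analysed here.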

Additional observations from a re-analysis of the deposited data

How the results depend on the processing

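Itpr2, Orai2, Trpm2 and Tpcn2 kept their direction and their call under every alternative run, and Stim2 under all but the length correction. With any 1 mouse left out, 5 to 6 channel genes were called lower and 0 to 1 higher. Orai1 was the 1 gene called higher under upper quartile factors (log2 fold change 0.29, adjusted p = 0.0274), a minimum of 10 counts in every mouse (0.26, adjusted p = 0.0393), limma-voom (0.27, adjusted p = 0.0486), without young mice 1 and 2, chosen after seeing the data (0.33, adjusted p = 0.0384), and in 4 of 12 fits that left out 1 mouse (0.20 to 0.30 over the 12; without aged mouse 1 or 7, or young mouse 2 or 10). Tpcn1 was called lower without TMM factors (-0.28), with the GC correction (-0.24) and without aged mouse 4 (-0.25), and Itpr1 on thinned libraries (-0.47) and without aged mouse 1 (-0.45). Stim1, near 0, was at 0.032 with upper quartile factors, 0.0035 with the count minimum, 0.074 with the length correction, 0.0080 without young mice 1 and 2, and -0.020 to 0.023 with 1 mouse left out. Itpr1 was at 0.14 with the length correction. With the length correction 14 other calcium genes were called lower, against 22, and with 1 mouse left out these were 18 to 24 lower and 20 to 23 higher. With aged mice 5, 6 and 7 alone, chosen after seeing the data, Itpr3 was at -0.033 and Stim1 at 0.041. The cause of these changes was not tested.

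Without TMM factors 1682 genes were called higher and 2762 lower, a share of higher calls of 37.8% against 49.4% (2185 and 2240), with the median log2 fold change of all genes shifted by -0.09. Leaving out young mice 5 and 6, also chosen after seeing the data, gave 1392 and 1765 calls, 5 channel genes lower and none higher, 18 and 17 other calcium genes, and 0.19 for Tpcn1/Tpcn2. On libraries thinned to the smallest total 4 ratios no longer passed the test, Itpr1/Itpr2 at 0.45, Itpr1/Itpr3 at -0.34, Itpr2/Itpr3 at -0.79 and Tpcn1/Tpcn2 at 0.29. The same 4 did not pass with the young mice summed in twos, chosen after seeing the data, at 0.58, -0.81, -1.39 and 0.30, where the smallest exact p is 0.0119, and that fit called 1402 genes higher and 1871 lower. They did not pass with aged mice 5, 6 and 7 alone either (0.37, -0.56, -0.93 and 0.19; 1521 and 1493 genes called), and passed with aged mice 1, 2 and 4 alone (1654 and 1790). With 1 mouse left out the ratios ran from 0.46 to 0.67, -0.96 to -0.66 (past the threshold in 7 of 12, lost without aged mouse 1, 2, 4 or 6 or young mouse 10, at adjusted p-values of 0.0519 to 0.0606), -1.60 to -1.14, 0.32 to 0.39 for Stim1/Stim2, 0.66 to 0.82 for Orai1/Orai2 and 0.25 to 0.35 for Tpcn1/Tpcn2.

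The labels give 4 mouse numbers to both ages. Same-numbered mice did not deviate together (correlations -0.14, -0.07, -0.24 and -0.25, none best with its own number), so that they share only a number. A replicate block on these 8 mice gave 1586 genes higher and 1860 lower, against 2088 and 2306 without it, and 5 channel genes lower both ways. The paired ratio differences were 0.53 for Itpr1/Itpr2, -0.81 for Itpr1/Itpr3, -1.35 for Itpr2/Itpr3, 0.40 for Stim1/Stim2, 0.98 for Orai1/Orai2 and 0.32 for Tpcn1/Tpcn2, and 4 pairs allow no exact p below 0.125. Itpr3 rested on the fewest counts, 7 to 45 per mouse.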
